A study of Mus musculus with 10 samples.

Results

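The interferon-stimulated genes described here are 63 protein-coding genes, taken by gene symbol from the 54532 genes measured in mouse heart. They comprise the *Ifit*, *Ifitm* and *Oas* genes, the guanylate-binding proteins (*Gbp*), the immunity-related GTPases (IRG: *Irgm1*, *Irgm2*, *Igtp* and *Iigp1*), the interferon regulatory factors (*Irf*), *Stat* genes, and 14 others such as *Isg15*, *Rsad2* and *Mx1*. Their mRNA was measured by poly(A) RNA-seq in the hearts of 10 *Rit1* M90I/+ mice, 5 given vehicle and 5 given the MEK1/MEK2 inhibitor trametinib (MEKi; 1 mg/kg daily). Dosing began at the age of 4 weeks and lasted 20 weeks. All 10 mice carried the germline M90I allele of *Rit1*, a RAS-family GTPase gene mutated in Noonan syndrome, and were bred from conditional *Rit1* M90I males and females of a cytomegalovirus-promoter Cre deleter line, so no group without the allele was compared. The comparison asks what MEK inhibition did to this gene group in hearts that carry the allele.

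From 13647167 to 18474002 fragments per heart were assigned to genes. Levels are given as deposited FPKM, fragments normalized for gene length and library size. The heart label was borne out by 6 cardiomyocyte markers, which summed to between 14342 and 20089 FPKM in every heart. Transcripts linked to the sex chromosomes divided the hearts exactly as treatment did. *Xist* was at 5.16 to 6.85 FPKM in MEKi-treated hearts and had at most 2 fragments in any vehicle heart, while *Ddx3y* and *Eif2s3y* were at 8.14 FPKM or more in every vehicle heart and had 0 fragments in every MEKi-treated heart, where 0 allows up to 3 fragments. The labels give no sex, and the paper states that mice of both sexes were included. Treatment and sex, as these transcripts mark it, cannot be told apart in any difference below. Vehicle hearts 4 and 5 also stood apart in 6 red cell transcripts, which summed to 23642 and 25876 FPKM against 2899 to 7387 in the other 8 hearts. Atrial transcripts (*Sln*, *Myl7* and *Myl4*) summed to 837, 383 and 678 FPKM in vehicle hearts 4 and 5 and MEKi-treated heart 2, and to at most 38.1 elsewhere. In whole tissue, fewer cells of a type and less RNA per cell cannot be told apart.

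Interferons are secreted signals, and those of type I are made when cells sense foreign or misplaced nucleic acid. Type I interferons and interferon gamma act through separate receptors and the JAK kinases. STAT proteins phosphorylated by these kinases bind, with IRF9, the interferon-stimulated response element (ISRE), whereas STAT dimers bind the gamma-activated site (GAS). The genes induced this way restrict viruses and intracellular bacteria, and many are kept at a low level in healthy tissue, the heart included.

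The promoters are shown because many of the members hold a sequence there that few other genes hold. Promoter windows from RefSeq (GRCm38.p6), reaching from 250 bases before to 50 bases after an annotated start, were found for 46 of the 63 members. The ISRE core GAAANNGAAA, searched on both strands, lay in the windows of 24 of the 46 (52.2%), against 1079 of all 27025 genes with a window (3.99%). The GAS core TTCNNNGAA lay in 13 of the 46 (28.3%) against 9.55% of all genes, and both were found in 7 (15.2%) against 0.614%. In 1 member window the 2 motifs shared a base. The 37 ISRE matches lay between positions -241 and 33 from the start, with a median of -66, and 18 members had a match within the 150 bases before it. All 5 *Gbp* windows and all 3 IRG windows held the ISRE core, as did 5 of 6 *Ifit*, 4 of 8 *Oas*, 2 of 7 *Ifitm* and 1 of 8 *Irf* windows. A match is a description of these letters and not a bound site. The 7 stretches below, each 80 bases and written 5′ to 3′ on the strand of the gene, come from members whose values are given later, with the ISRE cores in capitals on whichever strand they were read.
Isg15 (chr4:156200840-156200919, minus strand): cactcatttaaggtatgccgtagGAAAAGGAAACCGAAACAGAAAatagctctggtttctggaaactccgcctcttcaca
Rsad2 (chr12:26456528-26456607, minus strand): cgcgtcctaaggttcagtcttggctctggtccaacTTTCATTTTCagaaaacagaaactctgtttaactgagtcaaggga
Ifit1 (chr19:34640769-34640848, plus strand): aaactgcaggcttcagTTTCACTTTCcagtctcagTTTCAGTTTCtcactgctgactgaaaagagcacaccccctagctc
Gbp3 (chr3:142559964-142560043, plus strand): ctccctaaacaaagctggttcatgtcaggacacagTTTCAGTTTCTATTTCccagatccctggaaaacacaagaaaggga
Oas1a (chr5:120907526-120907605, minus strand): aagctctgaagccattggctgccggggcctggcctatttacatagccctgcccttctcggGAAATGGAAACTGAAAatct
Igtp (chr11:58199476-58199555, plus strand): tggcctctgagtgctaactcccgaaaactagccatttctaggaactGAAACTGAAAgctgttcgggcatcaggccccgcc
Irgm2 (chr11:58214878-58214957, plus strand): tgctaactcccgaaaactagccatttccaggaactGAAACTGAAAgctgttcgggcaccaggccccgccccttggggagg
The *Isg15* stretch held 3 overlapping matches, and those of *Gbp3* and *Oas1a* held 2 overlapping matches each. The *Ifit1* stretch held 2 separate ones. The stretches of the neighbouring *Igtp* and *Irgm2* were near copies, with 67 of 69 compared bases identical. The *Igtp*, *Isg15*, *Rsad2*, *Ifit1* and *Oas1a* stretches lie outside the annotated interval of their gene, whereas the *Irgm2* stretch lies within the long annotated interval of *Irgm2* (chromosome 11, 58199618 to 58222782), past the end of *Igtp*, and the last bases of the *Gbp3* stretch fall inside *Gbp3* (chromosome 3, 142560026 to 142573209).

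Most members were measured at low levels (plot of FPKM by gene and heart). Of the 63, 2 averaged 100 FPKM or more across the hearts, 5 lay between 10 and 100, 34 between 1 and 10, 4 between 0.5 and 1, and 18 below 0.5. *Ifitm3*, which blocks virus entry at endosomal membranes, was the most abundant and made up 30.0% of the summed mean FPKM of the members (534). With *Ifi27l2a* (19.0%), a small interferon-induced membrane protein, and *Ifitm2* (14.1%), it accounted for 63.1%. Among the 18 low members were *Mx1*, the dynamin-like antiviral GTPase, with 7 to 24 fragments per heart, and *Oas3*, with 4 to 19. *Ifi44l*, *Oas1e*, *Oas1f* and *Ifitm7* had 0 fragments in every heart, which allows up to 0.157, 0.120, 0.146 and 0.091 FPKM. The 18 were not tested for MEKi, which leaves 45 members that averaged 0.5 FPKM or more.

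**Figure D1:**
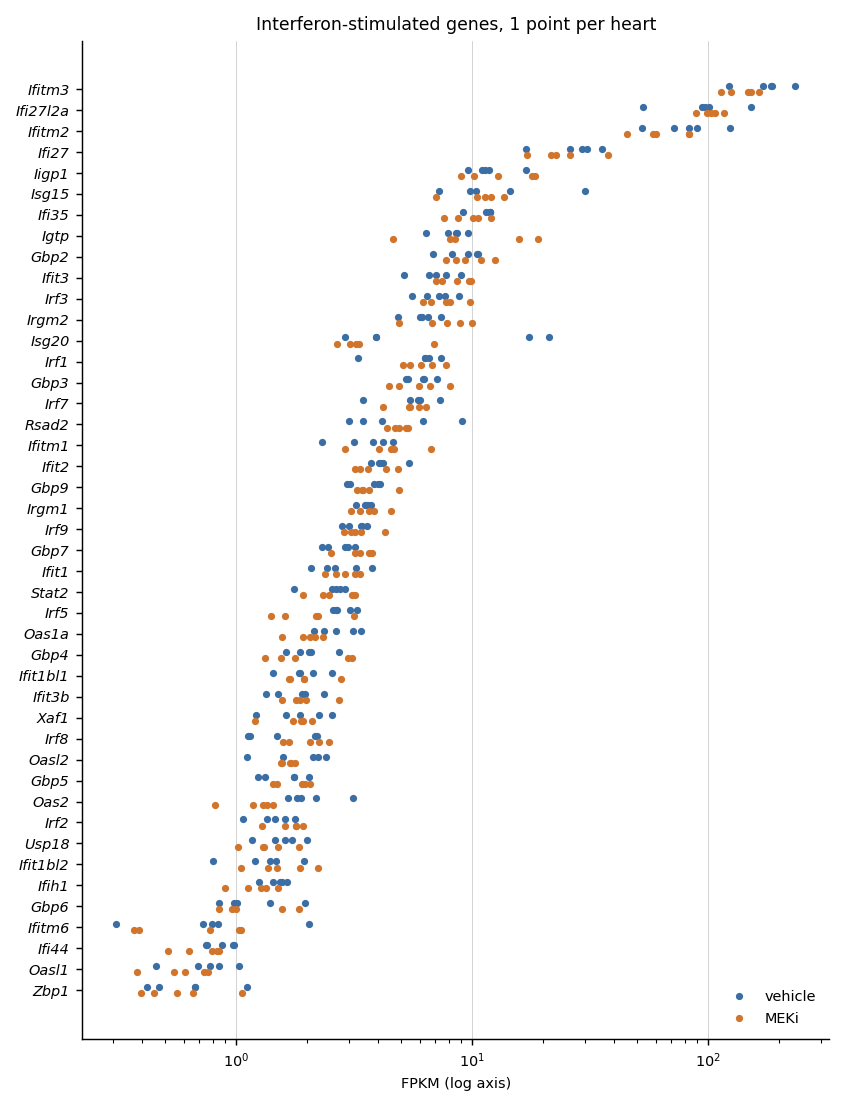
FPKM (x axis, log scale) of 44 of the 45 members that averaged 0.5 FPKM or more, ordered by mean, with 1 point per heart and colour for treatment group (n = 5 each). The levels run from *Ifitm3*, at 113 to 235 FPKM, to *Zbp1*, at 0.396 to 1.11, and the colours of the groups overlap in all genes but *Oas2*.

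No member passed the test of MEKi against vehicle. Of the 45 members tested, 0 had an adjusted p under 0.05 (limma on log2(FPKM + 0.1), Benjamini-Hochberg over 12602 genes), against 0.0794% of all genes tested, and voom on the recovered fragments also called 0. The share of all genes was 10 genes, and 0 genes of any kind passed when X, Y and mitochondrial genes were left out. The smallest adjusted p of any member was 0.318. At an unadjusted p under 0.05 there were 3 members (6.67%), against 7.62% of all genes, and 6 when vehicle heart 3 was left out. All 3 (*Oas2*, *Oas1a* and *Irf5*) were lower with MEKi, and 497 of the 960 genes at that p (3.94% of all genes tested) were lower too. The groups did not overlap for 1 member, *Oas2* (2.22%), against 1.64% of all genes, and for 2 members when vehicle heart 2 or 3 or MEKi-treated heart 2 or 4 was left out. The shares of all genes given here are those of the fit on all 10 hearts. Groups of fewer hearts separate more readily in any gene, so the counts with a heart left out have no background beside them.

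The fitted differences centred on 0 and split evenly by sign. The median log2 fold change of the 45 members was 0.0096, that of all genes 0.011, and 23 (51.1%) were above 0 against 52.1% of all genes. The range was from -0.94 for *Isg20* to 0.32 for *Irf8*. The 95% interval lay within a 2-fold change in either direction for 42 of the 45 and within 1.5-fold for 23, so for the other 22 these 5 hearts a group left room for a change of that size. *Oas2*, *Isg20* and *Ifitm6* had intervals reaching past a 2-fold lower level. Spread between hearts was wider for the members than for genes at large, with a median residual SD of 0.32 against 0.25 on the log2 scale. The members and the other genes were not matched for level in this comparison.

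**Figure D2:**
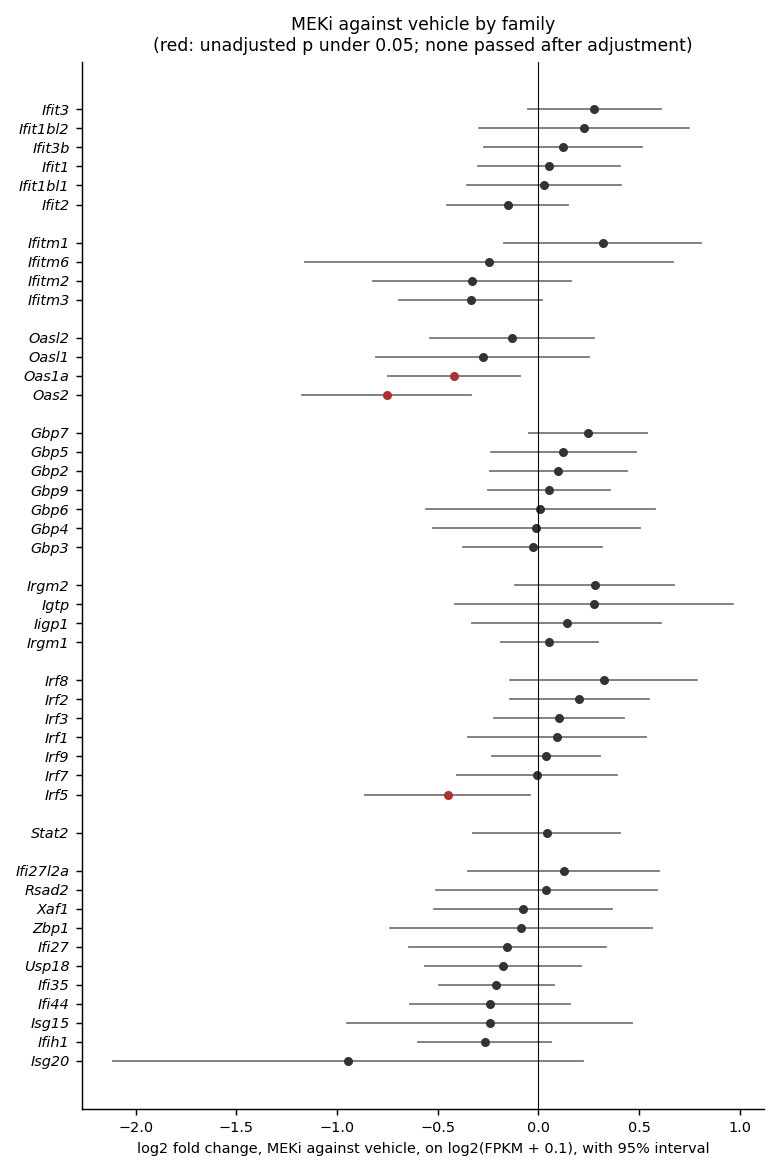
Log2 fold change of MEKi against vehicle on log2(FPKM + 0.1) (x axis) for 44 of the 45 members tested, grouped by family, with 95% intervals from limma (n = 5 hearts per group). The 3 red points, *Oas2*, *Oas1a* and *Irf5*, had an unadjusted p under 0.05, and the points below and above 0 number 21 and 23.

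The *Oas* genes encode the 2-5A synthetases, which make a short oligoadenylate on sensing double-stranded RNA and so switch on RNase L. All 4 *Oas* members tested were lower with MEKi (median log2 fold change -0.35), and 2 of them, *Oas2* and *Oas1a*, had an unadjusted p under 0.05. *Oas2* (chromosome 5, 120730333 to 120749853) was at 3.12, 1.89, 2.18, 1.66 and 1.82 FPKM in vehicle hearts 1 to 5 and at 1.35, 1.30, 1.18, 1.43 and 0.815 FPKM in MEKi-treated hearts 1 to 5. The groups did not overlap, with vehicle heart 1 the highest and MEKi-treated heart 5 the lowest. The group levels were 2.13 ± 0.584 and 1.21 ± 0.242 FPKM (SD, n = 5), and the log2 fold change was -0.75 ± 0.19 (SE; adjusted p = 0.318 by limma). Across the alternatives tried the log2 fold change stayed between -0.92 and -0.49, and the adjusted p between 0.304 and 0.608.

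*Oas1a* (chromosome 5, 120896256 to 120907521) was at 2.36, 2.13, 3.13, 2.67 and 3.39 FPKM in vehicle hearts and at 2.17, 1.92, 2.35, 1.57 and 2.06 FPKM in MEKi-treated hearts. The groups overlapped, since MEKi-treated hearts 1 and 3 exceeded vehicle heart 2. On 53 to 93 fragments per heart, the log2 fold change was -0.42 ± 0.15 (SE; adjusted p = 0.550 by limma). Of the 50-base stretches of *Oas1a* transcripts, 57.6% also occur in another gene, chiefly *Oas1g*. Reads of the shared part may have been left out of the counts or split between the paralogs, since the counting settings are not given. *Oas1g* itself was at 0.358 ± 0.0957 and 0.407 ± 0.213 FPKM. The other 2 tested members, *Oasl1* and *Oasl2*, encode synthetase-like proteins and had log2 fold changes of -0.28 ± 0.24 and -0.13 ± 0.19 (SE). *Oas3*, under the level for testing and named after its values were seen, was at 0.0589, 0.128, 0.109, 0.122 and 0.185 FPKM in vehicle hearts and at 0.0330, 0.0330, 0.0385, 0.0316 and 0.117 FPKM in MEKi-treated hearts. Only MEKi-treated heart 5 came above the lowest vehicle heart, on 4 to 19 fragments per heart. Other untested *Oas* genes went the other way. *Oas1c* averaged 0.281 FPKM in vehicle and 0.391 FPKM in MEKi-treated hearts, on 4 to 35 fragments per heart, and the *Oas1g* mean given above was also higher with MEKi.

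**Figure D3:**
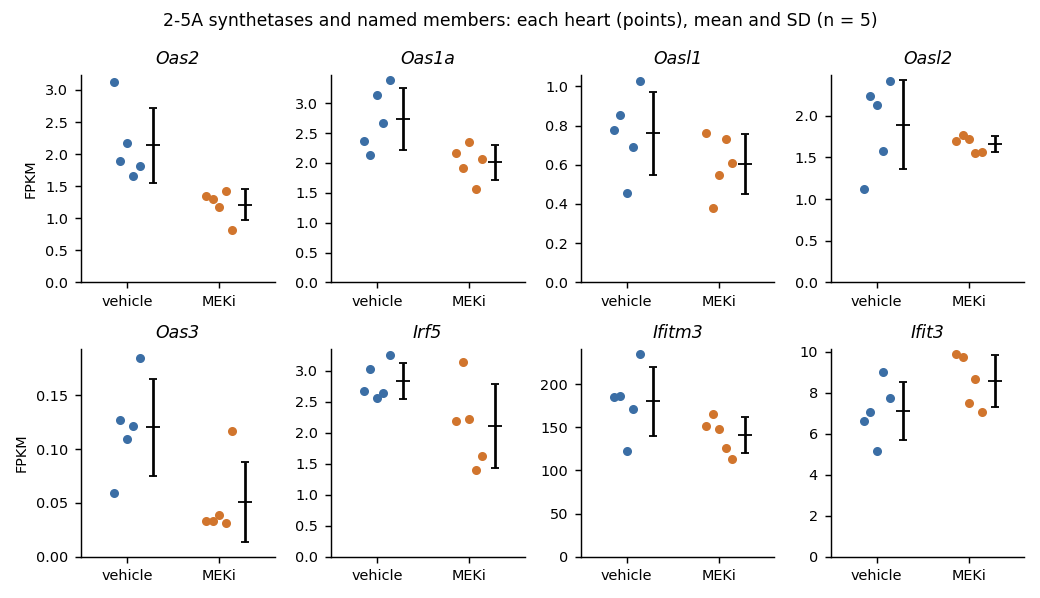
FPKM (y axes, each from 0) of *Oas2*, *Oas1a*, *Oasl1*, *Oasl2*, *Oas3*, *Irf5*, *Ifitm3* and *Ifit3* in vehicle and MEKi-treated hearts, with 1 point per heart and bars for the mean and SD (n = 5). *Oas2* is separated by group, with vehicle hearts at 1.66 to 3.12 FPKM and MEKi-treated hearts at 0.815 to 1.43, whereas every other panel overlaps.

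*Irf5*, the third of these members, encodes a transcription factor of Toll-like receptor signalling found in macrophages and other myeloid cells. *Irf5* (chromosome 6, 29526625 to 29541871) was at 2.68, 3.03, 2.57, 2.65 and 3.26 FPKM in vehicle hearts and at 2.19, 3.15, 2.23, 1.41 and 1.62 FPKM in MEKi-treated hearts. MEKi-treated heart 2 was among the highest of all 10 and the other 4 treated hearts lay below every vehicle heart. Its log2 fold change was -0.45 ± 0.19 (SE; adjusted p = 0.606 by limma). *Irf5* overlaps *Tnpo3*, on the opposite strand and at a like level (2.47 FPKM), and the strand setting of the counting is not given in the sources used here, so reads of the shared part may belong to either gene.

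Macrophage markers differed in the same direction as *Oas2*, *Oas1a* and *Irf5*. All 8 (such as *Csf1r*, *C1qb* and *Cd163*) had a log2 fold change below 0, with a median of -0.36 and 3 at an unadjusted p under 0.05, and 0 passed after adjustment. Their summed level was 214 to 386 FPKM in vehicle hearts and 188 to 232 FPKM in MEKi-treated hearts. None of the 8 was at 0. Among all genes tested, 7.62% had an unadjusted p under 0.05 and 52.1% had a log2 fold change above 0. Of 6 endothelial markers, 5 were below 0 and 1 above (median log2 fold change -0.14), with 0 at an unadjusted p under 0.05. Of the neutrophil markers, *S100a8* and *S100a9* were also lower with MEKi. The list summed to 17.8, 28.4, 9.75, 10.3 and 84.2 FPKM in vehicle hearts 1 to 5 and to 2.80 to 15.2 FPKM in MEKi-treated hearts. *Ly6g* was at 0 in every heart, and *Mpo* had 3 fragments in MEKi-treated heart 5 and 0 elsewhere. The part of these cells in the *Oas* and *Irf5* values was not tested.

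The *Ifit* genes encode tetratricopeptide proteins that bind foreign RNA. Of 6 tested, 5 were above 0 and 1 below (median log2 fold change 0.09), and 0 had an unadjusted p under 0.05. *Ifit3* (chromosome 19, 34583531 to 34588731), the most abundant, was at 6.61, 7.04, 5.16, 9.01 and 7.76 FPKM in vehicle hearts and at 9.90, 9.75, 7.49, 8.65 and 7.08 FPKM in MEKi-treated hearts. MEKi-treated hearts 1 and 2 were the highest and vehicle heart 3 the lowest, and the groups overlapped. The fit gave a log2 fold change of 0.28 ± 0.15 (SE; adjusted p = 0.713 by limma). *Ifit3* shares 51.2% of its 50-base stretches with *Ifit3b*, so whether shared reads were left out or divided between the pair is uncertain. *Ifit1* and *Ifit2*, whose MEKi means differed from the vehicle means by 2.28% and -9.93%, had log2 fold changes of 0.05 ± 0.16 and -0.15 ± 0.14 (SE).

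The *Ifitm* proteins sit in the plasma and endosomal membranes and hinder fusion of enveloped viruses. Of the 4 tested, 3 were below 0 and *Ifitm1* was above, and their median log2 fold change was -0.29. *Ifitm3* (chromosome 7, 141009586 to 141010770) was at 185, 186, 123, 171 and 235 FPKM in vehicle hearts and at 152, 165, 148, 126 and 113 FPKM in MEKi-treated hearts. Vehicle heart 3 lay among the treated values, and without it the log2 fold change went from -0.34 ± 0.16 (SE; adjusted p = 0.664 by limma) to -0.47 (adjusted p = 0.317). *Ifitm2*, named after its values were seen, had the same size of difference, -0.33 ± 0.23 (SE), with 48.5% of its 50-base stretches shared with related pseudogenes and predicted genes.

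The IRG and GBP proteins are large GTPases that coat and disrupt the vacuoles of intracellular pathogens, and they are classical targets of interferon gamma. In both families the highest values fell mostly in the same 2 MEKi-treated hearts. All 4 IRG members had a log2 fold change above 0 (median 0.21), as did 5 of 7 tested *Gbp* members (median 0.05), and 0 of these 11 had an unadjusted p under 0.05. *Iigp1* (chromosome 18, 60376029 to 60392627) was at 17.0, 11.8, 11.4, 11.0 and 9.64 FPKM in vehicle hearts and at 18.5, 18.0, 12.9, 9.01 and 10.2 FPKM in MEKi-treated hearts. MEKi-treated hearts 1 and 2 and vehicle heart 1 stood at the top, and MEKi-treated heart 4 was the lowest. The treated and vehicle levels differed by a log2 fold change of 0.14 ± 0.22 (SE; adjusted p = 0.913 by limma).

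*Igtp*, which encodes a GTPase of the endoplasmic reticulum, varied most in its family and is named, with *Irgm2* and *Gbp4*, after its values were seen. *Igtp* (chromosome 11, 58199556 to 58207591) was at 7.91, 8.68, 6.37, 8.60 and 9.65 FPKM in vehicle hearts and at 15.8, 19.0, 8.05, 4.65 and 8.47 FPKM in MEKi-treated hearts. The treated group held both the 2 highest hearts and the lowest heart, giving 8.24 ± 1.22 and 11.2 ± 5.95 FPKM (SD, n = 5). *Irgm2*, which regulates such GTPases, was at 4.85, 7.41, 6.02, 6.17 and 6.54 FPKM in vehicle hearts and at 9.98, 8.94, 7.86, 4.89 and 6.78 FPKM in MEKi-treated hearts. Its order among the treated hearts was like that of *Igtp*, with hearts 1 and 2 on top and heart 4 at the bottom. The annotated intervals of the 2 genes overlap on the same strand, so their counts are not fully separate.

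Among the *Gbp* genes, *Gbp2* (chromosome 3, 142620602 to 142638008) was the most abundant, at 6.85, 10.6, 8.22, 9.59 and 10.5 FPKM in vehicle hearts and at 12.5, 11.0, 9.39, 8.58 and 7.77 FPKM in MEKi-treated hearts. *Gbp7* (chromosome 3, 142530342 to 142550149) was at 2.31, 2.45, 3.21, 2.99 and 2.89 FPKM in vehicle hearts and at 3.65, 3.79, 3.36, 2.52 and 3.21 FPKM in MEKi-treated hearts. Both genes were highest in MEKi-treated heart 1 or 2, and the groups overlapped for both. The log2 fold changes were 0.10 ± 0.16 (SE; adjusted p = 0.916) for *Gbp2* and 0.24 ± 0.13 (SE; adjusted p = 0.715) for *Gbp7* by limma. *Gbp4* was at 2.74, 2.05, 1.63, 1.87 and 2.09 FPKM in vehicle hearts and at 3.10, 2.99, 1.55, 1.33 and 1.78 FPKM in MEKi-treated hearts, again with treated hearts 1 and 2 on top and heart 4 at the bottom. It overlaps *Gbp9* on the same strand. *Gbp3*, also named after its values were seen, was at 6.19, 6.25, 5.23, 7.11 and 5.35 FPKM in vehicle hearts and at 6.65, 8.07, 5.96, 4.44 and 4.89 FPKM in MEKi-treated hearts, with a log2 fold change of -0.03 ± 0.16 (SE; adjusted p = 0.976 by limma). The low *Gbp10* and the tested *Gbp6* share 84.1% and 70.7% of their 50-base stretches with other genes and are uncertain.

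In all, 10 of the 11 tested IRG and *Gbp* members (90.9%) had their highest value in MEKi-treated heart 1 or 2, against 1559 of the 12602 genes tested (12.4%) and 10 of the other 34 members (29.4%). These hearts were picked out after the values were seen, so the counts are a description. The median deviation of the IRG members from their gene means was 0.55 in MEKi-treated heart 1, 0.46 in heart 2 and -0.47 in heart 4, and between -0.15 and -0.04 in the other 7 hearts. The promoters printed above for *Igtp*, *Irgm2* and *Gbp3* belong to this group, but the ISRE core is not particular to it. The printed stretches of *Isg15*, *Rsad2*, *Ifit1* and *Oas1a* held the core as well, and these genes were highest in vehicle heart 4 or 5. No promoter window was found for *Iigp1*, *Gbp4*, *Gbp6* and *Gbp9*. Classical MHC class I transcripts (*H2-K1*, *H2-D1* and *B2m*, a list added after seeing the data), which are also interferon targets, summed to 682, 637, 461, 647 and 852 FPKM in vehicle hearts and to 810.5, 877, 618, 469.7 and 509.8 FPKM in MEKi-treated hearts. MEKi-treated hearts 1 and 2 and vehicle heart 5 were the 3 highest, and vehicle heart 3 and MEKi-treated heart 4 the 2 lowest. A list of 31 other interferon targets, given below by direction, summed to 179, 152, 117, 160 and 184 FPKM in vehicle hearts. In MEKi-treated hearts its sums were 168, 174, 148, 139 and 137 FPKM. Vehicle hearts 5 and 1 were the highest for that list, above MEKi-treated hearts 2 and 1.

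**Figure D4:**
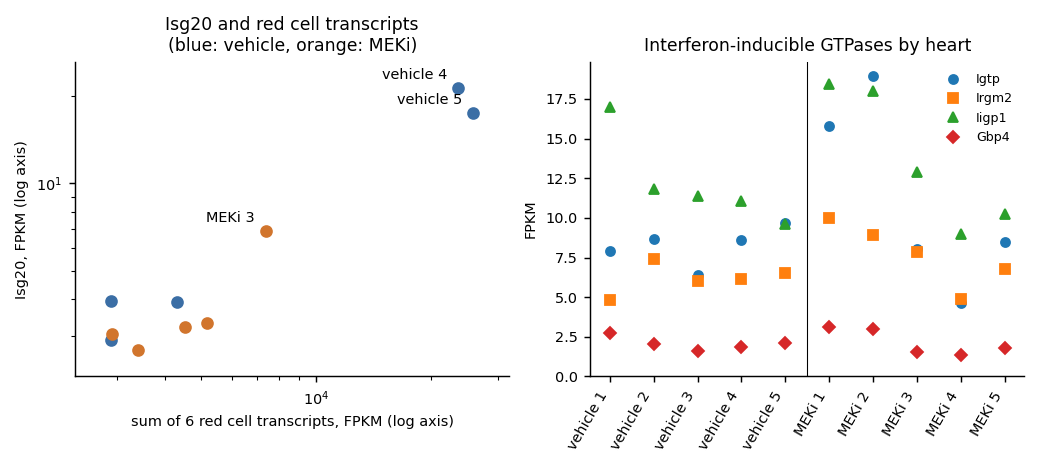
Left, *Isg20* against the sum of 6 red cell transcripts in each heart (FPKM, both axes log), with vehicle in blue and MEKi in orange; right, FPKM of *Igtp*, *Irgm2*, *Iigp1* and *Gbp4* in each heart. Vehicle hearts 4 and 5 lie at the upper right with *Isg20* at 21.3 and 17.4 FPKM, and MEKi-treated hearts 1 and 2 carry the 2 highest *Igtp* values, 15.8 and 19.0 FPKM.

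IRF7, the factor that amplifies type I interferon production, is a common readout of interferon signalling. *Irf7* (chromosome 7, 141262706 to 141266481) was at 7.35, 5.90, 3.46, 5.48 and 6.02 FPKM in vehicle hearts and at 5.42, 6.40, 5.99, 5.48 and 4.21 FPKM in MEKi-treated hearts. Vehicle heart 1 was the highest and vehicle heart 3 the lowest, with the treated hearts between them. The log2 fold change of *Irf7* was -0.01 ± 0.18 (SE; adjusted p = 0.993 by limma), and its sign changed with the heart left out and on a TPM scale. Its 95% interval ran from -0.41 to 0.39.

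Of the *Irf* members, 7 were tested and 5 of these were above 0, and the median log2 fold change was 0.09. *Irf3* (chromosome 7, 44997648 to 45002848), a factor held ready in the cytoplasm for nucleic acid sensing, was the most abundant at 7.25, 6.45, 5.60, 7.68 and 8.82 FPKM in vehicle hearts and at 6.70, 9.80, 7.73, 8.09 and 6.18 FPKM in MEKi-treated hearts. *Irf3* and *Irf7* overlap *Bcl2l12* and *Phrf1* on the opposite strand, so some of their reads may belong to those genes. The *Irf3* levels of the groups overlapped throughout, with a log2 fold change of 0.10 ± 0.15 (SE) and an adjusted p of 0.909 by limma. *Irf8*, a myeloid factor, had the highest log2 fold change of any member at 0.32 ± 0.21 (SE; adjusted p = 0.757 by limma), and is named for that reason after its value was seen. *Irf4* was below the level for testing, at 0.381 FPKM over the 10 hearts.

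The remaining members include the ubiquitin-like modifier *Isg15* and the radical-SAM enzyme viperin, encoded by *Rsad2*, which makes a chain-terminating nucleotide. Of the 11 tested in this mixed group, 9 were below 0 and 2 above. *Isg15* (chromosome 4, 156199424 to 156200818) was at 10.4, 9.82, 7.26, 30.1 and 14.5 FPKM in vehicle hearts and at 13.7, 12.0, 10.5, 7.03 and 11.4 FPKM in MEKi-treated hearts. Vehicle heart 4 stood above every other heart, and MEKi-treated heart 4 was the lowest. The log2 fold change was -0.24 ± 0.32 (SE; adjusted p = 0.901 by limma), and it was 0.069 without vehicle heart 4.

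*Ifi27l2a* (chromosome 12, 103442167 to 103443680) was at 97.4, 94.5, 53.0, 152 and 101 FPKM in vehicle hearts and at 98.9, 107, 89.0, 117 and 104 FPKM in MEKi-treated hearts. Vehicle heart 4 was again the highest and vehicle heart 3 the lowest, so the vehicle SD (35.1 FPKM) exceeded the MEKi SD (10.5 FPKM). The log2 fold change was 0.12 ± 0.22 (SE; adjusted p = 0.931 by limma), and it was -0.083 without vehicle heart 3. *Rsad2* (chromosome 12, 26442746 to 26456452), named after its values were seen, followed the same vehicle hearts, at 3.45, 4.14, 3.02, 9.10 and 6.20 FPKM in vehicle hearts and at 4.91, 5.24, 4.71, 5.35 and 4.35 FPKM in MEKi-treated hearts. Its log2 fold change was 0.04 ± 0.25 (SE; adjusted p = 0.980) in all hearts and 0.47 ± 0.13 (SE; adjusted p = 0.527 by limma) without vehicle hearts 4 and 5.

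*Isg20*, an exonuclease that degrades single-stranded RNA, had the largest fitted difference of the 45 members, which rested on 2 vehicle hearts. *Isg20* (chromosome 7, 78913424 to 78920396), named after its values were seen, was at 2.91, 3.92, 3.93, 21.3 and 17.4 FPKM in vehicle hearts and at 3.04, 3.32, 6.88, 2.68 and 3.22 FPKM in MEKi-treated hearts. Vehicle hearts 4 and 5 were far above the other 8, and the remaining 3 vehicle hearts lay within the MEKi range. Its log2 fold change was -0.94 ± 0.53 (SE; adjusted p = 0.715 by limma), and it was 0.018 ± 0.28 (SE; adjusted p = 0.995) without vehicle hearts 4 and 5. The 3 hearts with the most *Isg20*, vehicle 4, vehicle 5 and MEKi-treated heart 3, were also the 3 with the most red cell transcript (23642, 25876 and 7387 FPKM). The list holds *Hbb-bs*, *Hbb-bt*, *Hba-a1*, *Hba-a2*, *Alas2* and *Slc4a1* and was added after seeing the data. The part of red cells in the *Isg20* value was not tested.

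Heart by heart, most families did not divide by treatment (heat map of deviations). The exception was the *Oas* family, by its 4 tested members, chosen for mention after its values were seen. Their median deviation lay between 0.060 and 0.49 in the 5 vehicle hearts and between -0.27 and -0.067 in the 5 MEKi-treated hearts. *Gbp*, IRG and several *Irf* members were high in MEKi-treated hearts 1 and 2, and of the 45 tested members 13 (28.9%) had their highest value in MEKi-treated heart 1 and 7 (15.6%) in heart 2, against 4.81% and 7.56% of all genes tested. Vehicle heart 5 held the highest value of 12 members (26.7%), among them *Ifitm3*, *Ifitm2*, *Oas1a* and *Irf5*, against 16.0% of all genes. Vehicle heart 5 also had the highest sums of macrophage, endothelial, fibroblast and neutrophil markers, at 386, 178, 231 and 84.2 FPKM. At the other end, vehicle heart 3 and MEKi-treated heart 4 held the lowest value of 23 of the 45 members (51.1%), against 23.5% of all genes. The median deviation over the 45 members ranged from -0.21 to 0.19 among vehicle hearts and from -0.18 to 0.21 among MEKi-treated hearts, with group means of 0.014 ± 0.16 and 0.0043 ± 0.18 (SD, n = 5).

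**Figure D5:**
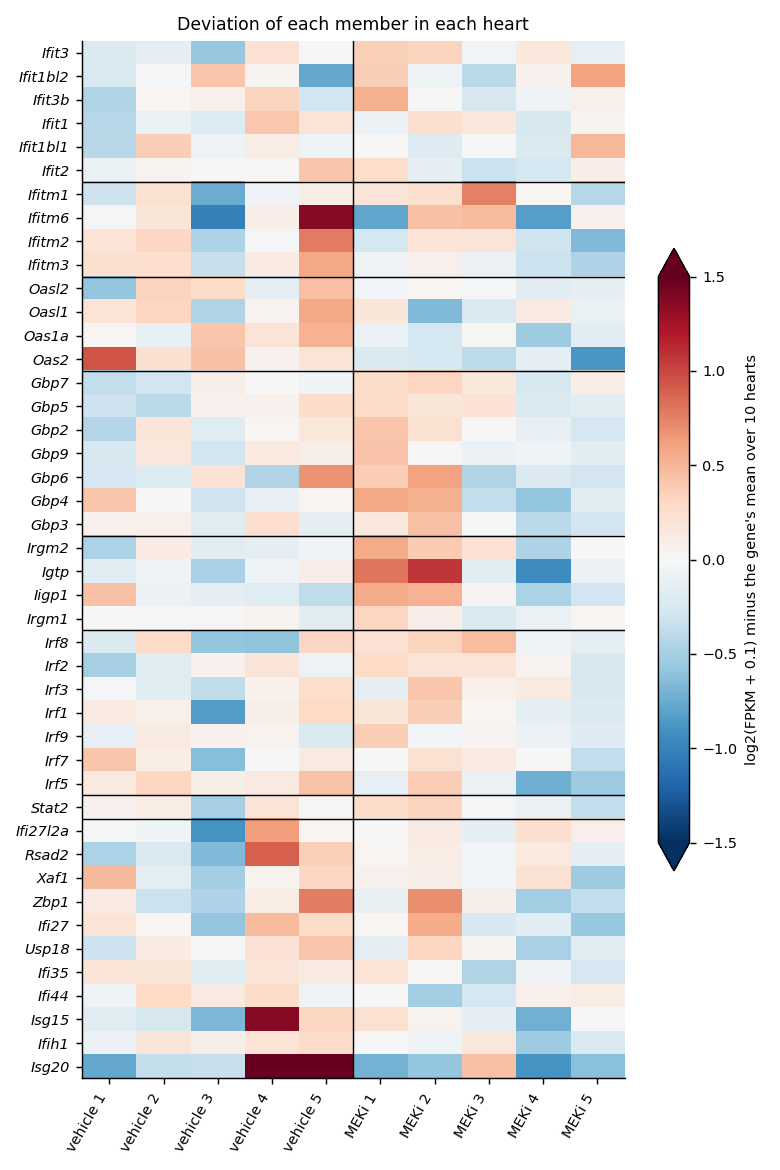
Deviation of log2(FPKM + 0.1) from the mean over the 10 hearts of each gene (colour, red higher and blue lower) for 44 of the 45 members tested, in rows grouped by family, and the 10 hearts, in columns. *Igtp* and *Iigp1* are red in MEKi-treated hearts 1 and 2, vehicle heart 3 and MEKi-treated heart 4 are blue for many genes, and *Isg20* is darkest in vehicle hearts 4 and 5.

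The signalling genes that feed these members were measured alongside, from lists that leave the members out. Of 9 interferon ligands, 7 had 0 fragments in every heart, and *Ifng* and *Ifna2* had at most 2 and 1, so no ligand could be tested. All 9 receptor and kinase genes were tested, 6 above 0 and 3 below, and 0 passed the adjusted threshold. Of all genes tested, 52.1% were above 0. *Ifngr2*, the signalling chain of the interferon gamma receptor, was the most abundant, with vehicle hearts at 39.6 ± 6.52 and treated hearts at 42.2 ± 6.55 FPKM (SD, n = 5). *Ifnar2*, a chain of the type I receptor, had a log2 fold change of 0.26 ± 0.10 (SE; adjusted p = 0.563 by limma). *Il10rb*, which also serves the type III interferon receptor, was at 17.3 to 21.3 FPKM in vehicle and 21.5 to 23.5 FPKM in MEKi-treated hearts. The groups did not overlap, as in 1.64% of all genes tested, and the log2 fold change was 0.20 ± 0.08 (SE; adjusted p = 0.604 by limma).

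Sensors and adaptors upstream of interferon production leaned to lower levels with MEKi. Of 9 tested, 8 were below 0 and 1 above (median log2 fold change -0.15), and 0 passed the adjusted threshold. Over all genes tested the median was 0.011 and 52.1% were above 0. The most abundant of the list, the mitochondrial adaptor *Mavs*, was at 20.1 ± 4.14 and 17.7 ± 4.08 FPKM. *Tmem173*, which encodes the cyclic dinucleotide sensor STING, was at 2.99, 3.74, 2.60, 3.18 and 4.66 FPKM in vehicle hearts and at 2.86, 1.87, 2.48, 1.41 and 2.32 FPKM in MEKi-treated hearts. *Myd88*, the adaptor of most Toll-like receptors, was at 5.44, 4.01, 5.11, 5.07 and 6.83 FPKM in vehicle hearts and at 3.87, 3.89, 4.47, 3.56 and 3.56 FPKM in MEKi-treated hearts. Both overlapped between groups, in *Myd88* by 1 treated heart above 1 vehicle heart. The log2 fold changes were -0.64 ± 0.20 for *Tmem173* and -0.43 ± 0.13 for *Myd88* (SE), with adjusted p of 0.463 and 0.461 by limma. Vehicle heart 5, which had the highest macrophage, endothelial, fibroblast and neutrophil marker sums, was the highest in both. It was also the highest heart for 16.0% of all genes tested. The part of these cells in the *Tmem173* and *Myd88* values was not tested.

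Of 6 negative regulators, 3 were above 0 and 3 below. *Socs3*, the feedback inhibitor of JAK signalling, had a log2 fold change of -0.47 ± 0.22 (SE), with an adjusted p of 0.652 by limma, and *Pias4*, the most abundant, had 0.26 ± 0.13. The list of 31 interferon targets outside the members gave 13 above and 15 below 0 among 28 tested, with a median of -0.03 and 0 past the adjusted threshold. *Bst2*, which tethers budding virus to the cell, led it at 46.7 ± 15.0 and 43.9 ± 8.56 FPKM (SD, n = 5). *Trim25* (0.24 ± 0.10) and *Helz2* (-0.40 ± 0.15; log2 fold change and SE) had an unadjusted p under 0.05, with adjusted p of 0.626 and 0.567 by limma. These were 2 of the 28 tested, and 7.62% of all genes tested had such a p.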

How the data were processed

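Heart RNA of 5 vehicle and 5 MEKi-treated mice was poly(A)-selected and sequenced. The authors deposited FPKM per gene and heart with gene lengths and coordinates, and the submitters' processing notes name fastp, STAR 2.5, HTSeq 0.6.1 and mm10, with no settings. Coordinates were those of GENCODE M21 for 61 of the 63 members. In each heart 100% of FPKM times gene length came to whole fragments (tolerance 0.01), from 13647167 to 18474002 per heart. Groups follow the labels, which call the mice biological replicates.

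Values were compared as log2(FPKM + 0.1) in limma 3.58.1 (R 4.3.3; lmFit, eBayes with a trend) two-sided, on the 12602 genes averaging 0.5 FPKM or more, with p-values adjusted by Benjamini-Hochberg and called under 0.05. On this scale the fold changes of low genes are understated. The paper's text states no test for these libraries. The fit was tested on simulated data. Summaries used Python 3.11.15, numpy 2.4.6, pandas 2.3.3 and matplotlib 3.10.9.

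The members and gene lists were chosen with earlier results of these data known. Named members are the 6 with the smallest unadjusted p, the most abundant of each family, and common readouts such as *Isg15* and *Irf7*; in each pathway list, the most abundant gene and any with an unadjusted p under 0.05. Some genes covered by this rule are not reported here. Any other member or gene named in the report was picked after its values were seen. Alternatives were pseudocounts of 1 and 0.01, no filter, a minimum average of 5 FPKM, quantile normalization, a TPM scale, eBayes without a trend, voom on recovered fragments, leaving out X, Y and mitochondrial genes, a block for the replicate number, each heart left out in turn, and, added after seeing the data, leaving out vehicle hearts 4 and 5. The limma intervals and SEs rest on the spread between hearts within the groups, whereas the floors of 3 fragments cover counting error only. Sequence shared between genes was counted over 50-base stretches of the GENCODE M21 transcripts.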

Additional observations from a re-analysis of the deposited data

How the results depend on the processing

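In all 21 alternatives 0 members passed the adjusted threshold, and the median log2 fold change of the members ran from -0.083 (without vehicle heart 3) to 0.095 (TPM scale, on which the median of all genes was 0.087). At a mean of at least 5 FPKM, 17 members remained, of which 0 had an unadjusted p under 0.05, 0 had groups that did not overlap and 9 were above 0. Leaving out 1 heart gave 2 to 6 members at an unadjusted p under 0.05, 1 to 2 without overlap and 18 to 27 above 0, and leaving out vehicle hearts 4 and 5 gave 3 without overlap. No shares of all genes are set beside these counts, and groups of fewer hearts separate more readily in any gene. A higher count with fewer hearts is therefore not read as a result about the members. Signs that reversed belonged to differences within their error: *Irf7* (0.068) on the TPM scale, and *Isg15* (0.24) and *Irf7* (0.034) without vehicle hearts 4 and 5. With 1 heart left out the log2 fold changes ran from -0.17 to 0.094 for *Irf7*, from -0.083 to 0.30 for *Ifi27l2a* and from -0.44 to 0.069 for *Isg15*. The cause was not tested. Same-numbered hearts did not deviate together (correlations from -0.15 to -0.021, and 0 hearts were closest to their own number), and with the replicate number as a block 0 members passed, 3 had an unadjusted p under 0.05 and the median was 0.0096. Depth limits the 18 members under 0.5 FPKM.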
